A study of Mus musculus with 24 samples.

Results

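Long intergenic noncoding RNAs (lincRNAs) are transcripts of stand-alone genes that the annotation credits with no protein. In neonatal mouse cerebral cortex, 109 autosomal lincRNA genes held at least 100 counts in every one of 12 libraries, of 3960 lincRNA genes and 48709 genes in the table. They were chosen by gene type and by this count minimum in cortex, after H19, Meg3 and Mirg had been left out as imprinted. Just inside the minimum were C130073E24Rik with a lowest count of 101, 4930480K23Rik with 102 and Gm26794 with 104, and just outside were Fam120aos with 99, 3110039M20Rik with 98 and Gm42851 with 95. Because the cortex counts chose these genes, their levels there, and their surplus over blood, are given as a description. Exposure was not used in the choice.

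The cortices and whole blood came from neonates of C57BL/6 dams (C57BL/6J on the sample labels, C57BL/6NJ in the methods) that inhaled nPM or filtered air during pregnancy. nPM is nano-sized particulate matter gathered beside a freeway and re-aerosolized at 300 μg/m3 (the labels print mg/m3), breathed in sessions of 5 h, 3 days each week, from gestational day 2. The labels give an age of 3 to 5 days, and every combination of tissue, sex and exposure had 3 libraries, 24 in all. According to the methods, the 3 neonates of a group came from different litters, but no label ties a blood library to a cortex library. The p-values below set each difference against the spread between these libraries and treat every neonate as independent. It was the dams that were exposed, and the methods do not say whether females and males of an exposure shared litters. Littermates in the comparisons of both sexes together could make those p-values too small.

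Some lincRNAs are known to act in the nucleus. Malat1 collects in nuclear speckles, Neat1 builds paraspeckles by binding proteins such as Sfpq and Nono, and Miat is a nuclear RNA of neurons. Others are known mainly for the small RNAs cut from them, and miR-9 and miR-124, the best-known microRNAs of neural progenitors and neurons, are released from such host transcripts. 1700020I14Rik, known as Cyrano, works the other way: its pairing with miR-7 leads to destruction of that microRNA.

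Of the 109 genes, 14 contained a miRNA gene on their own strand and 4 contained a snoRNA gene. The mature sequences below, from RefSeq on GRCm38.p6, are shown because these products define the hosts, with the seed (bases 2 to 8, which select targets) in capitals. miR-9-5p is encoded at chr13:83738821-83738843 inside C130071C03Rik, at chr3:88215613-88215635 inside Gm3764 and at chr7:79505279-79505301 inside Mir9-3hg, all on the plus strand. miR-129-5p is encoded inside both Mir670hg and Gm3294, miR-138-5p inside C78859, and miR-344d-3p and miR-344e-3p inside a gene named A230057D06Rik on chromosome 7.
miR-9-5p: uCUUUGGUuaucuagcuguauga
miR-9-3p: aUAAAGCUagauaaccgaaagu
miR-129-5p: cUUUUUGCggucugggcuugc
miR-138-5p: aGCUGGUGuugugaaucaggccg
miR-344d-3p: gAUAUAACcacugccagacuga
miR-344e-3p: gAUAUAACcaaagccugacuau
The last pair share the seed AUAUAAC. Mir124a-1hg and Mir124-2hg contain miR-124 genes, whose sequence is not printed here. The other hosts were 6720427I07Rik (let-7d), ENSMUSG00000097348 (Mir135a-2 and Mir1251), Snhg20 (Mir6516), 2900076A07Rik (Mir1839) and Gm20754 (Gm24544). ENSMUSG00000097348 is an identifier, given because that gene had no symbol in the annotation used. The snoRNA hosts were Snhg6, Snhg12, 6530403H02Rik and Gm26945.

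For Cyrano the sequence of interest lies within the transcript. A site at chr2:119602136-119602161 (plus strand, GRCm38) matched the miR-7a-5p seed, shown in capitals in both strings. After a short mismatched stretch, the site went on to pair with a further 13 bases of the microRNA.
miR-7a-5p: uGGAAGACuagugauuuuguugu
Cyrano site: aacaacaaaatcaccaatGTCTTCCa
A second seed match, at chr2:119599946-119599971, had a longest further run of 3 bases.

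Many of the 109 are barely characterised: 40 carried a predicted-gene symbol starting with Gm and 46 a RIKEN clone symbol. The later Gencode M21 release held 106 of them and still called 96 lincRNAs. In Gencode M21 or RefSeq, 8 were protein-coding, among them 6330403K07Rik, 1810058I24Rik and D930016D06Rik. Of all 109, 23 started within 5 kb of a coding gene's start and ran away from it, 25 lay over 100 kb from any coding gene, and 42 overlapped another gene body on the same strand and 34 on the other. The strandedness of the counting is not given in the sources used here, so reads of such overlapping genes cannot be told apart.

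The cortex libraries held 22301409 to 33804371 counts on genes and the blood libraries 13595647 to 21895536. Summed CPM (counts scaled to the library's total) of 6 glutamatergic markers (Slc17a7, Neurod6 and others) were 735 to 950 in every cortex, and the choroid plexus list was at 28.5 CPM in the male control V14 against 231 to 504 CPM in the other 11. Globin genes took 66.2 to 76.8% of blood counts, apart from 50.1% in V2, a control female that was left out of the blood fits. V5, a male nPM blood library, held counts on 93 of the 109 lincRNAs, where the 10 others without V2 held 42 to 66.

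Malat1 dominated the set. It averaged 4053 CPM in cortex, ahead of Gm26917 at 1837 CPM, Cyrano at 1015 CPM, Gm42418 at 313 CPM and Miat at 302 CPM. The miR-9 host C130071C03Rik followed at 166 CPM and 6330403K07Rik at 144 CPM, and then Mir124-2hg at 74.8 CPM, Gm3764 at 71.2 CPM and Pantr1, which lies beside the neural factor gene Pou3f3, at 63.3 CPM. The levels fell away quickly after these. 7 of the 109 genes reached 100 CPM, 49 were under 10 CPM, and the median was 10.8 CPM. Per kb of gene model Malat1 (580 CPM per kb) and Gm26917 (552 CPM per kb) led, Cyrano stood at 122 CPM per kb and Neat1, a long gene at 8.27 CPM, at 0.398 CPM per kb. Gm26917 and Gm42418 sit together at chr17:39843013-39848788, where RefSeq lists the latter as a ribosomal RNA pseudogene, so reads shared with near-identical copies leave their counts uncertain.

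Steadiness across the 12 cortices varied. The coefficient of variation of TMM-scaled CPM had a median of 11.7%, with the lowest value, 4.18%, for Cyrano and the highest, 33.0%, for Gm11549. Cyrano ranged from 934 to 1087 scaled CPM over all 12 cortices.

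**Figure D1:**
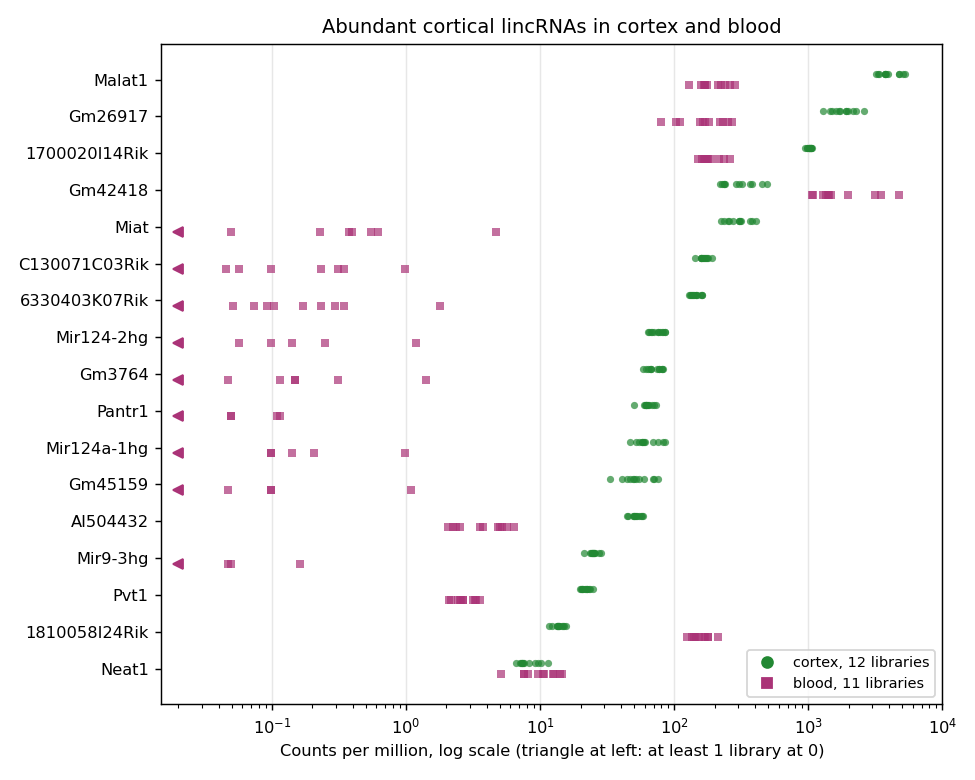
CPM on a log axis for 17 of the lincRNAs, with each of the 12 cortex libraries a green circle and each of 11 blood libraries (V2 left out) a purple square. Triangles at the left mark genes at 0 in at least 1 blood library. Gm42418 and 1810058I24Rik lie to the right in blood, and the miR-9 and miR-124 hosts lie at or near 0 there.

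In blood most of these RNAs were scarce by CPM. Globin genes took 66.2 to 76.8% of counts in the 11 libraries without V2, which lowers the CPM of every other gene. Over the 11 libraries, 29 of the 109 had a count in every library, 74 in 1 to 10 libraries and 6 in none, and 94 averaged under 1 CPM. Miat averaged 0.625 CPM in blood, with 4.66 CPM in V5 and at most 0.621 CPM in the others. C130071C03Rik averaged 0.188 CPM, Mir124-2hg 0.158 CPM and Pantr1 0.0292 CPM. V5 was the highest blood library for 55 of the 109 genes, and 16 were detected in V5 and in no other of the 11. Whether tissue other than blood contributed to V5 was not tested.

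Cyrano and Malat1 were the exceptions among the abundant nuclear and regulatory RNAs, with blood means of 188 and 199 CPM. By CPM of all counts, globin included, 3 genes were higher in blood than in cortex: Gm42418 (2037 against 313 CPM), 1810058I24Rik (159 against 13.8 CPM) and Neat1 (10.3 against 8.27 CPM). AI480526 and 2310015A10Rik came next, with blood means of 3.43 and 1.13 CPM. The lowest ratios of blood to cortex among genes present in every blood library were those of Gm10419, Snhg6, 4632415L05Rik, Cep83os and 4632404H12Rik, at 0.229 to 0.444 CPM in blood.

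Together the 109 lincRNAs took less of the female cortex after nPM. Their share of all counts was 1.09, 1.06 and 1.12% in the control females V10, V12 and V19, and 0.853, 0.792 and 0.943% in the nPM females V09, V11 and V20. It was 0.924, 0.911 and 0.799% in the control males V14, V16 and V24 and 0.924, 0.812 and 1.08% in the nPM males V13, V15 and V23. The female groups did not overlap and the male groups did. With 3 against 3 libraries an exact permutation test cannot go below p = 0.1. Of all single genes, 11.2% lay wholly below the controls in females. The 95% Wilson intervals of these shares, which cover counting error only, were at most 0.00807 percentage points wide.

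Malat1 made up 39.3 to 48.5% of the members' counts, and the 4 most abundant genes 74.4 to 79.5%. Without Malat1 and the chromosome 17 pair, the remaining 106 took 0.341% ± 0.00607 (SD, n = 3) in control females and 0.309% ± 0.00460 (SD, n = 3) in nPM females, again with no overlap. In males the shares were 0.316% ± 0.0188 (SD, n = 3) in controls and 0.320% ± 0.0135 (SD, n = 3) after nPM. TEC genes, a Gencode class of provisional and mostly unspliced loci, moved with these shares. They took 0.384% ± 0.0193 (SD, n = 3) of counts in control females and 0.285% ± 0.0110 (SD, n = 3) in nPM females. The part of whatever sets the TEC share in the female values below was not tested. In bulk tissue, fewer cells of a type and less RNA per cell cannot be told apart.

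**Figure D2:**
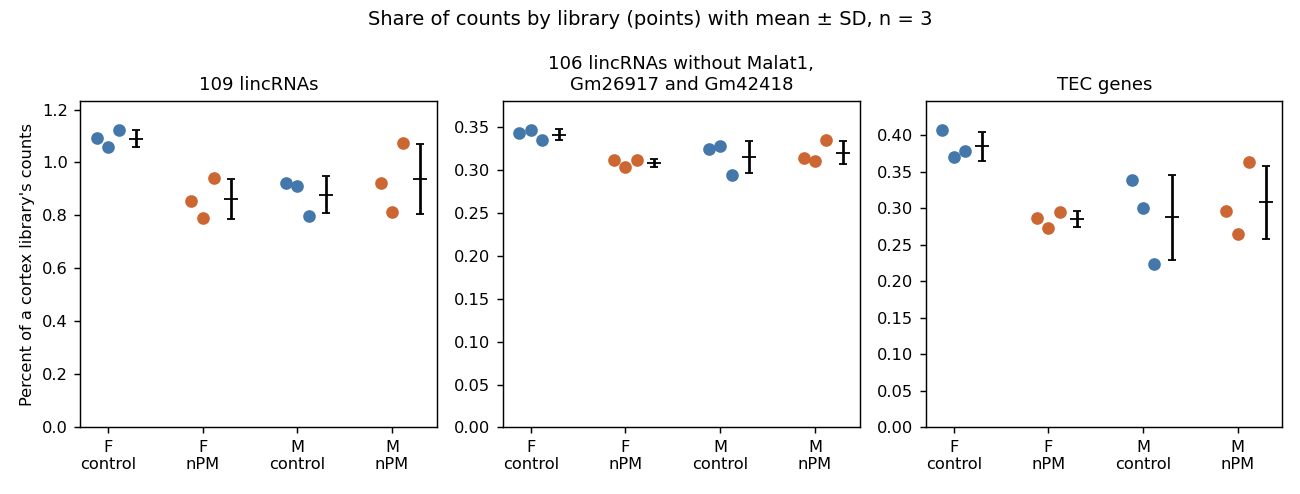
Percent of each cortex library's counts on the 109 lincRNAs (left), on 106 of them without Malat1, Gm26917 and Gm42418 (middle) and on TEC genes (right), for females (F) and males (M). Points are libraries and bars mean ± SD of 3. In all 3 panels the nPM females sit below all control females, and the male groups overlap.

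The first comparison asked what nPM did to these RNAs in cortex of both sexes together, with sex and RIN (RNA integrity) as covariates. 12 of the 109 lincRNAs were lower and 2 higher at an unadjusted p under 0.05 (edgeR's quasi-likelihood test), where 5.67% of all 20857 genes tested passed, 2.94% lower and 2.73% higher. None passed an unadjusted p of 0.005 (0.614% of all genes did) or Benjamini-Hochberg adjustment (lowest adjusted p = 0.844; 0.0144% of all genes passed). Of the 109, 79 had a fold change below 0, against 51.1% of all genes, with a median log2 fold change of −0.05 for the set, −0.05 for other lincRNAs and −0.0024 for all genes. TEC genes had a median of −0.18. DESeq2 and limma voom also gave none past adjustment, and edgeR on genes with a count in any library gave 5, all lower. The shares of all genes in such alternative fits, here and below, are not given. Their counts therefore cannot be read as particular to the lincRNAs. With the TEC percent of each library as a covariate, 6 were higher and 7 lower at 0.05 and the median was −0.0042. The TEC share was itself apart by exposure in females, so this covariate also takes up exposure. That fit therefore cannot tell the TEC share and exposure apart. The count at 0.05 was 7 without V11, 8 without V12, 23 without V24 and 29 without V23.

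Gm28928, an uncharacterised gene at chr1:124505757-124846039 far from its nearest coding neighbour Dpp10, gave the smallest p. It stood at 11.035, 11.5 and 9.33 scaled CPM in control females, 7.96, 7.40 and 7.35 in nPM females, 12.8, 8.54 and 9.39 in control males and 9.81, 6.40 and 9.27 in nPM males. The female groups were apart and the male groups overlapped. Its log2 fold change over both sexes was −0.38 (SE 0.12, edgeR unadjusted p = 0.0064; exact permutation test, two-sided, p = 0.0173).

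A330008L17Rik, whose start lies 171 bases from that of the cadherin gene Cdh8 and faces away from it, had 9.04 to 11.1 scaled CPM in the 6 controls (median 10.3) and 7.70 to 9.05 in the 6 nPM cortices (median 8.60). The groups overlapped only at these ends. Its log2 fold change was −0.25 (SE 0.081, edgeR unadjusted p = 0.00708; exact permutation p = 0.00433). 2810032G03Rik, which likewise starts 188 bases from Klhl29, had a log2 fold change of −0.20 (edgeR unadjusted p = 0.0182; exact permutation p = 0.00649).

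Neat1, the paraspeckle scaffold, ranged over 7.27 to 11.1 scaled CPM around a median of 9.35 in the 6 controls. After nPM the range was 6.54 to 8.17 and the median 7.43, so the groups overlapped. Its log2 fold change of −0.29 (SE 0.098, edgeR unadjusted p = 0.00851) was −0.45 in females alone and 0.02 in males alone, both adjusted for RIN. The male means themselves were 7.95 ± 0.986 in controls and 7.32 ± 0.818 after nPM (SD, n = 3), so the male sign depended on that adjustment. Of the 14 genes at p under 0.05, the other 13 had 1 sign in both RIN-adjusted fits. A small p in the fit of both sexes favours genes that move the same way in each. The count of 13 therefore cannot show whether the sexes responded alike, and the signs of the whole set are given below. AI504432, beside the potassium channel gene Kcna3, was the more abundant of the 2 higher genes, at 45.2 to 54.6 scaled CPM in controls and 50.6 to 58.2 after nPM (log2 fold change 0.13, SE 0.052, edgeR unadjusted p = 0.0240). 4930480K23Rik was the other (0.25, unadjusted p = 0.0468). The remaining falls, of 9330102E08Rik, A830009L08Rik, Gm10419, A430046D13Rik, Gm30382, Gm15631, Gm10010 and Snhg20, had log2 fold changes of −0.33 to −0.16.

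**Figure D3:**
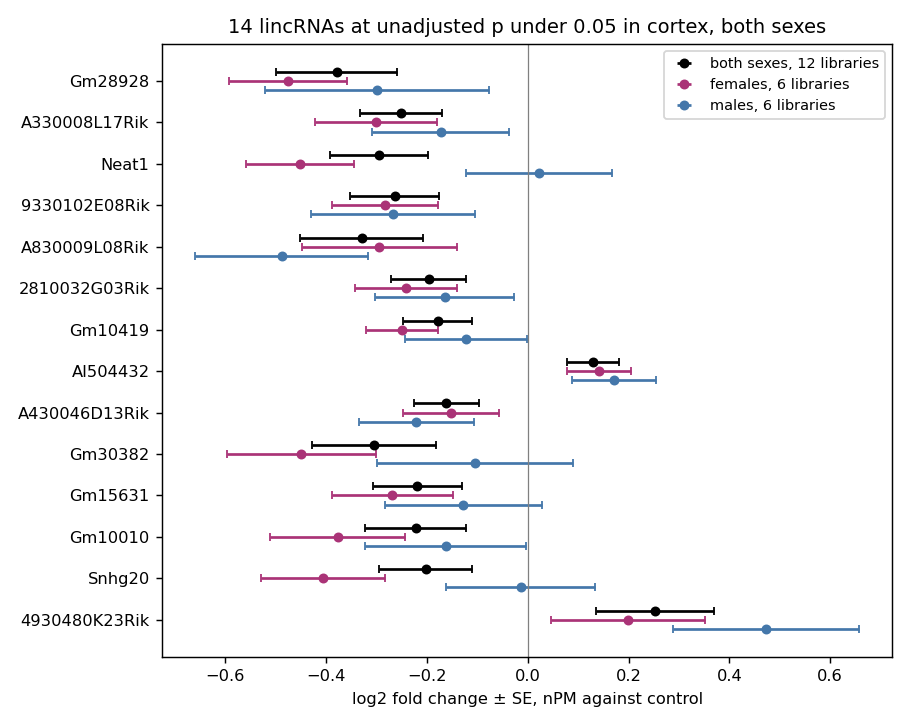
Log2 fold change of nPM against control with its standard error for the 14 lincRNAs at unadjusted p under 0.05 in the fit of both sexes (black), with the separate fits of females (purple) and males (blue). Among the 14, only Neat1 has RIN-adjusted values that differ in sign, −0.45 in females and 0.02 in males. Its male mean was nevertheless lower after nPM. The fit that chose the 14 favours genes with the same sign in both sexes.

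In females alone, 7 lincRNAs fell past Benjamini-Hochberg adjustment (edgeR, adjusted p under 0.05) and none rose, where 1.11% of all 21731 genes passed and 0.893% were lower. At an unadjusted p under 0.005, 16 of 109 were lower and 0 higher (4.02% of all genes passed, 2.83% lower). At 0.05, 38 were lower and 2 higher (15.4% of all genes, 9% lower and 6.41% higher). The 3 nPM females lay below all 3 control females for 35 of the 109 and above for 1, where all genes gave 11.2% and 9.87%. The median log2 fold change was −0.13, with −0.11 for other lincRNAs, −0.44 for TEC genes and −0.0022 for all genes. Leaving out 1 female library moved the 7 to 2 (without V11), 3 (V10) or 4 (V12, V19 or V20). Gm45159 passed adjustment with any 1 female library left out, and Malat1 with any but V19.

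Malat1 was the most abundant of the 7. It stood at 5149.8, 5087 and 4745 scaled CPM in the control females and at 3727, 3399.6 and 3683 in the nPM females. In males it was 3863, 3906 and 3372 in controls and 3762, 3162 and 4746 after nPM. Control females were above both nPM females and control males, and 1 nPM male, V23, reached their lowest value. The female means were 4994 ± 218 and 3603 ± 178 (SD, n = 3), a log2 fold change of −0.46 (SE 0.057, edgeR adjusted p = 0.00403). It fell in lane 2 (−0.52) and in lane 3 (−0.37) of the sequencer alike.

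Gm45159, 150654 bases from its nearest coding gene, the synaptic scaffold gene Dlg2, had the smallest p. Its values were 73.3, 68.7 and 70.9 scaled CPM in control females and 44.5, 50.2 and 46.4 in nPM females. It was 55.9, 52.2 and 33.7 in control males and 49.5, 40.2 and 59.1 in nPM males. The female groups were well apart, with a log2 fold change of −0.60 (SE 0.059, edgeR adjusted p = 0.00175), and the male groups overlapped.

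Mir124a-1hg, a host of miR-124, was at 83.6, 82.4 and 69.3 scaled CPM in control females and at 59.7, 52.1 and 57.6 after nPM. The log2 fold change was −0.45 (SE 0.064, edgeR adjusted p = 0.010), with lane values of −0.57 and −0.27. The mature microRNA was not measured.

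9530059O14Rik, near Topaz1, stood at 33.6, 33.6 and 32.7 scaled CPM in control females and 24.7, 21.8 and 24.2 after nPM (log2 fold change −0.49, edgeR adjusted p = 0.010). AI480526, which starts near the histone methyltransferase gene Setd1b, stood at 17.03, 17.1 and 15.6 scaled CPM and then 10.95, 10.8 and 12.96 (−0.50, edgeR adjusted p = 0.0258). In both the groups were separate. The other 2 of the 7 belong to the chromosome 7 cluster described below.

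**Figure D4:**
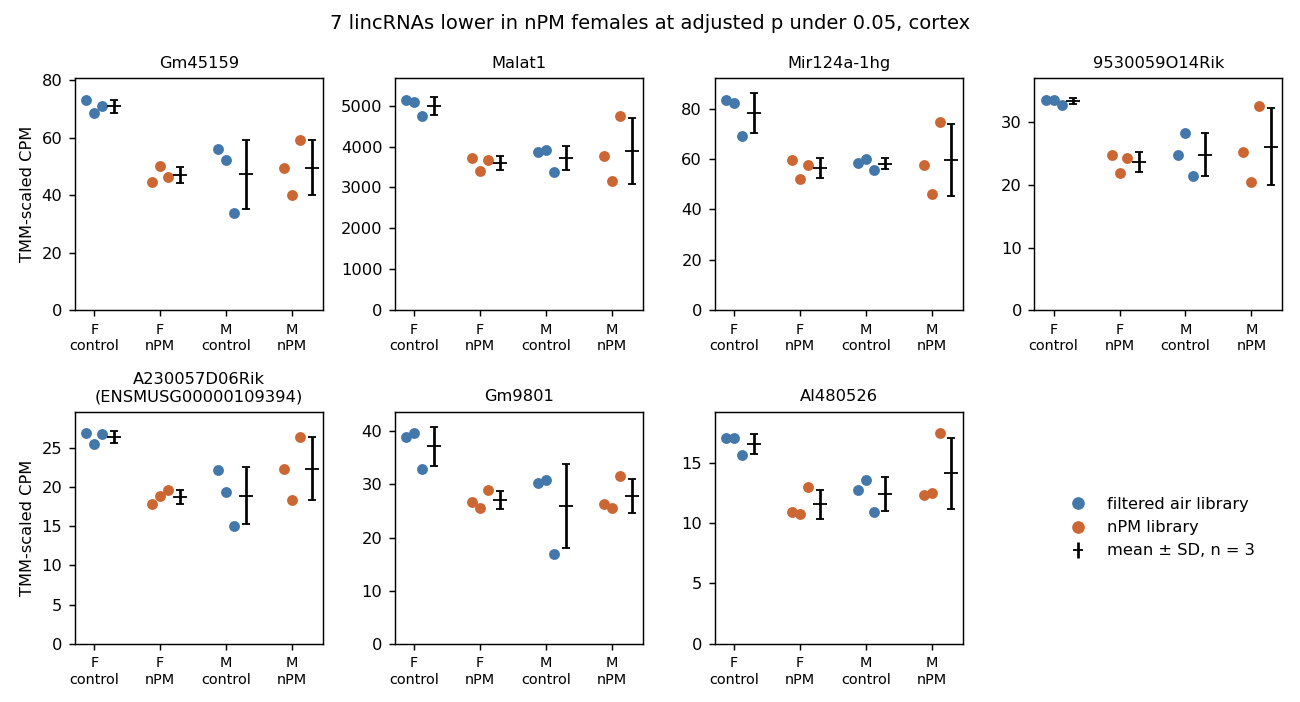
TMM-scaled CPM in each cortex library for the 7 lincRNAs lower in nPM females at adjusted p under 0.05, with filtered air in blue, nPM in orange and mean ± SD of 3 in black. In each panel all 3 nPM females lie below all 3 control females, and the male groups overlap.

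Among the next 9, at unadjusted p under 0.005, Miat had a log2 fold change of −0.35 (edgeR unadjusted p = 0.000638, adjusted p = 0.0532), but of −0.53 in lane 2 and −0.05 in lane 3. Neat1 followed with −0.45 (unadjusted p = 0.00124), at 11.1, 9.62 and 10.2 scaled CPM in control females and 7.33, 7.52 and 7.53 after nPM. The others were Gm28928, Gm3294, C78859, B830012L14Rik, Gm26945, Gm21781 and Gm10419, at −0.64 to −0.25.

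Cyrano, in contrast, had a log2 fold change of −0.06 in females (edgeR unadjusted p = 0.296) and −0.04 in males. Gm26917 (−0.34) and Gm42418 (−0.26) did not pass in females, with standard errors of 0.17 and 0.25. The 2 female risers at p under 0.05 were Gm17750 (0.35, unadjusted p = 0.0191) and AI504432 (0.14, unadjusted p = 0.0466).

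The hosts of miRNA genes shared the lean of the whole set in females. Of 14, 12 had a fold change below 0 (81 of the 109 and 50.4% of all genes did). At p under 0.05, 9 were lower and 0 higher, where 38 and 2 of the 109, and 9% and 6.41% of all genes, were. Their median log2 fold change was −0.17, against −0.13 for the 109 and −0.0022 for all genes. Gm3294 fell the most (−0.64, edgeR unadjusted p = 0.00203), and C78859, the miR-138 host, fell by 0.47 (unadjusted p = 0.00205), from 14.3 to 19.5 scaled CPM in control females to 9.93 to 13.8. Mir670hg, the other host of miR-129, had −0.18 (unadjusted p = 0.149). All 3 miR-9 hosts were below 0, and 2 of them were lower at p under 0.05. C130071C03Rik had −0.11 (unadjusted p = 0.0320), Gm3764 −0.16 (unadjusted p = 0.0168) and Mir9-3hg −0.04 (unadjusted p = 0.592). Both miR-124 hosts were lower, Mir124-2hg with −0.17 (unadjusted p = 0.0131). Of the 4 snoRNA hosts, 1 was lower, Gm26945, and Snhg6 and Snhg12 had 0.15 and −0.03.

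5 genes form a run on the minus strand of chr7:61127996-62209479, a region bordered by Ndn and Snrpn, genes of the imprinted domain that is lost in Prader-Willi syndrome in humans. All 5 were lower in nPM females at p under 0.05, with a median log2 fold change of −0.40. The A230057D06Rik gene with the identifier ENSMUSG00000109394 was at 26.9, 25.5 and 26.7 scaled CPM in control females and 17.8, 18.8 and 19.6 after nPM (−0.49, SE 0.075, edgeR adjusted p = 0.0123). Gm9801 was at 38.9, 39.7 and 33.0 and then 26.6, 25.6 and 29.0 scaled CPM (−0.43, SE 0.075, edgeR adjusted p = 0.0188). Neither pair of groups overlapped. The A230057D06Rik gene that carries the miR-344 genes had −0.40 (unadjusted p = 0.00607), B230209E15Rik −0.31 (unadjusted p = 0.00891) and A230006K03Rik −0.30 (unadjusted p = 0.0441). B230209E15Rik and A230006K03Rik were named after their values were seen. Because later annotation merges both A230057D06Rik entries and the 5 lie end to end on 1 strand, they may be pieces of fewer transcripts and are not independent. In males 4 of the 5 were above 0 and their median was 0.28.

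Gm26945 and B830012L14Rik lie on chromosome 12 near Rtl1, in the imprinted domain that also holds Meg3. Both fell in females, by 0.34 and 0.52 on the log2 scale (edgeR unadjusted p = 0.00304 and 0.00255).

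By position, the 25 lincRNAs over 100 kb from a coding gene had a female median of −0.19 with 11 lower and 1 higher at p under 0.05, where 9% of all genes were lower and 6.41% higher. The 23 divergent ones had a median of −0.12 with 8 lower. The 8 that later annotation calls coding had a median of −0.03 with 2 lower. No test was made between these groups. Of 87 nearest coding genes tested in females, 10 were lower and 5 higher at p under 0.05 (9% and 6.41% of all genes), with a median log2 fold change of 0.02. Of the 10 tested neighbours of the 16 most affected lincRNAs, 2 were lower, 1 was higher and 5 had a fold change below 0.

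Neat1's protein partners did not move as one. In females Sfpq was lower (−0.16, edgeR unadjusted p = 0.00485) and Nono was higher (0.12, edgeR unadjusted p = 0.0359). In both sexes together no paraspeckle protein gene reported here passed 0.05. Of 10 genes of nonsense-mediated decay, which degrades many spliced noncoding RNAs, Smg1, the kinase of that pathway, was lower in females (−0.26, edgeR adjusted p = 0.0431). Of the cell marker lists, none had more than 1 gene called in females at p under 0.05. Over all genes 15.4% passed, 9% lower and 6.41% higher. Lower was 1 of 6 glutamatergic markers. Higher were 1 of 8 GABAergic, 1 of 8 striatal, 1 of 5 tested hypothalamic and 1 of 5 choroid plexus markers. Of the erythroid genes, 0 of 6 passed. All 5 choroid plexus markers had a positive fold change, with a median of 0.23 on the log2 scale, and the GABAergic median was 0.16 and the glutamatergic −0.09. In both sexes together, all 8 GABAergic, 8 striatal and 5 choroid plexus markers were above 0 and all 6 glutamatergic below 0. Their medians were 0.16, 0.23, 0.39 and −0.11. At p under 0.05 (edgeR), 2 GABAergic and 2 striatal were higher and 1 glutamatergic lower. Of 4 hypothalamic, 1 was higher and 1 lower, and no choroid plexus or erythroid gene passed, where 5.67% of all genes did. Their part in the lincRNA values was not tested. In males the choroid plexus median was 0.75 and the striatal 0.55. The control male V14 was low in both lists, at 28.5 summed CPM for choroid plexus and 107 for striatum. The control males V16 and V24 had 375 and 305 for choroid plexus and 227 and 262 for striatum. The nPM males V13, V15 and V23 had 404, 394 and 231 for choroid plexus and 273, 314 and 277 for striatum. Their striatal sums thus lay above all control males, V16 and V24 included, and the choroid plexus sums overlapped. Of all genes, 4.37% lay wholly above the controls in males. Summed glutamatergic CPM was 821 to 839 in control females and 766 to 801 in nPM females, without overlap. Likewise apart were mitochondrial ribosomal RNA, at 5.21 to 5.42% and then 5.53 to 5.74% of counts, and the summed CPM of the nonsense-mediated decay list, at 607 to 645 and then 561 to 589.6. The GABAergic, striatal, hypothalamic, choroid plexus and erythroid sums overlapped between the female groups. Of all genes, 11.2% lay wholly below and 9.87% wholly above the controls in females. The part of these shares and sums in the female falls was not tested.

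In males alone the set stayed near 0. At p under 0.05, 7 of 109 were higher and 1 lower (all 21670 genes: 2.49% and 2.03%, 4.51% together), and none passed adjustment (0% of all genes did). The median log2 fold change was 0.04, and DESeq2 and limma voom gave none past adjustment, where edgeR on genes with a count in any library gave 2, both higher. The count at 0.05 was 3 without V24, 4 without V13 and 26 without V14. The 3 nPM males lay above all 3 control males for 5 of the 109 and below for 3, where all genes gave 4.37% and 4.83%. C130073E24Rik passed 0.005 as a gene that rose, as 0.185% of all genes did. It was at 4.66, 4.21 and 3.11 scaled CPM in control males and 5.32, 7.78 and 7.85 after nPM, with no overlap (log2 fold change 0.91, SE 0.23, edgeR unadjusted p = 0.00353, and 0.0627 without V23). It is also the member closest to the count minimum, and it had 7.01 ± 1.17 in control and 6.47 ± 1.13 in nPM females (SD, n = 3). A830009L08Rik was the 1 lower gene (−0.49, unadjusted p = 0.0183). In the RIN-adjusted edgeR fit, Mir124-2hg, lower in females, was higher in males (0.22, unadjusted p = 0.0427), as was C78859 (0.36, unadjusted p = 0.0256). For both the male groups overlapped. Mir124-2hg was at 69.0, 78.0 and 65.6 scaled CPM in controls and 64.3, 80.2 and 84.3 after nPM. C78859 was at 11.8, 11.8 and 10.3 and then 12.6, 11.2 and 16.1. Without RIN only C130073E24Rik was higher at p under 0.05, so neither of these calls held.

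Of the 109, 53 were below 0 in females and above 0 in males, 28 below 0 in both, 15 above 0 in females and below 0 in males, and 13 above 0 in both. Over all genes 50.4% were below 0 in females and 50.8% above 0 in males. The share of all genes with each pair of signs is not given. The counts by pair of signs therefore cannot be read as particular to the lincRNAs. All 7 genes that fell in females past adjustment had a positive fold change in males. The male values differed between lanes. For Malat1 the male difference was −0.17 in lane 2 (2 libraries against 2) and 0.49 in lane 3 (V23 against V24). For Gm45159 the same values were −0.28 and 0.81. The male median of 0.04 was −0.0037 without V23, −0.0012 without V24 and 0.10 without V14.

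The difference between the sexes was tested as an exposure-by-sex term, positive where the change in males exceeded that in females. At p under 0.05, 18 of 109 were positive and 1 negative (all 20857 genes: 5% and 4.68%, 9.68% together), 3 were positive at 0.005 (0.743% of all genes) and none passed adjustment (edgeR, lowest adjusted p = 0.321; 0% of all genes). The median was 0.15 against −0.0018 for all genes and 0.61 for TEC genes. DESeq2 gave 1 past adjustment, limma voom 0, and edgeR on genes with a count in any library 14. Without V23 the 19 fell to 10. The 3 were A230057D06Rik with the identifier ENSMUSG00000109394 (0.77, SE 0.20, unadjusted p = 0.00163), AI480526 (0.72, SE 0.20, unadjusted p = 0.00282) and Malat1 (0.56, SE 0.17, unadjusted p = 0.00485). Gm45159 (0.73), D930016D06Rik (0.46) and 9530059O14Rik (0.63) came next. With the TEC percent of each library as a further covariate, 0 of 109 passed 0.05, and the term fell to 0.13 for Malat1 and 0.07 for Gm45159. TEC genes had a large median term of their own, so that covariate also takes up the term under test. Such a fit cannot tell them apart.

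**Figure D5:**
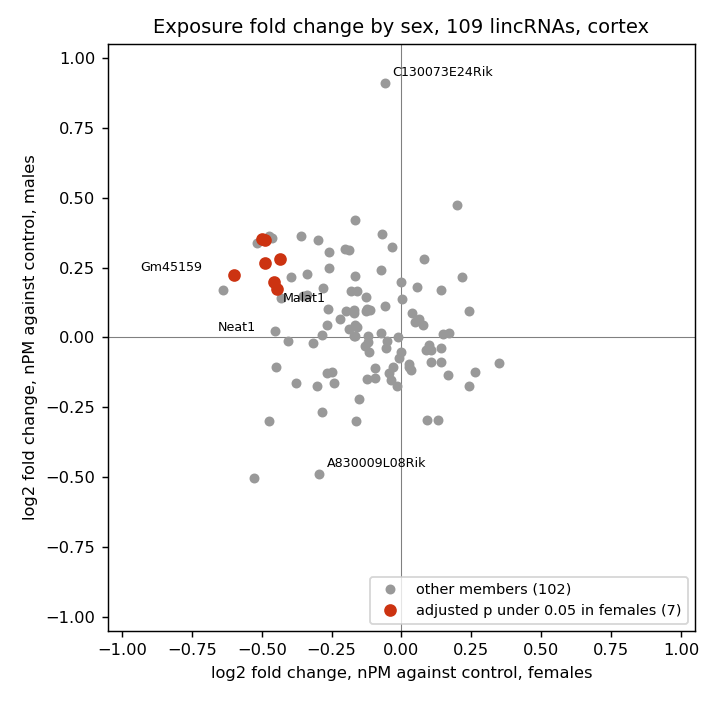
Log2 fold change of nPM against control in the fit of females (horizontal) and of males (vertical) for the 109 lincRNAs, with the 7 at adjusted p under 0.05 in females in red. The red points lie in the upper left, lower in females and above 0 in males, and 53 of the 109 lie there. The share of all genes there is not given.

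Between the sexes, regardless of exposure, Pantr1 differed most. It ranged from 50.2 to 64.8 scaled CPM in the 6 females and from 60.2 to 73.6 in the 6 males, with overlap, and was higher in males by a log2 value of 0.23 (SE 0.061, edgeR unadjusted p = 0.00202). It was the 1 member past 0.005, where 0.197% of all genes were higher in males. At 0.05, 2 were higher in males and 5 lower (2.9% and 3.2% of all genes, 6.09% together), and none passed adjustment (0.0336% of all genes). DESeq2 and limma voom gave 0 past adjustment, and edgeR on genes with a count in any library 1 higher and 1 lower. The 7 became 2 without V10 and 25 without V23. A830029E22Rik was the other one higher in males (0.30, unadjusted p = 0.0145), and 2810049E08Rik (−0.26, unadjusted p = 0.0255) and C130073E24Rik (−0.46, unadjusted p = 0.0265) were lower.

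In blood only 29 of the 109 lincRNAs had a count in all 11 libraries and could be tested. At an unadjusted p under 0.05 edgeR called 0 of the 29 (3.11% of the 9977 genes tested), and none passed adjustment (0% of all genes; lowest adjusted p = 1.00). DESeq2 gave 0 and limma voom 1 at 0.05, and leaving out V4, V5 or V6 gave 2. Their median log2 fold change was −0.04 against 0.00 for all genes. 2310015A10Rik came closest, at 1.02 to 1.65 scaled CPM in the 5 controls and 0.581 to 1.28 in the 6 nPM libraries (−0.56, unadjusted p = 0.0588; exact permutation p = 0.0671). The groups overlapped. Gm16001 (0.76, unadjusted p = 0.0967), Neat1 (0.30, unadjusted p = 0.119), Pvt1, the neighbour of Myc (−0.34, unadjusted p = 0.171), and Gm26917 (−0.35, unadjusted p = 0.195) came next.

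Neat1 in blood had 6.65 to 9.93 scaled CPM in the 5 controls, around a median of 8.77. The 6 nPM libraries had 7.42 to 14.3, around a median of 11.8. Malat1 in blood was at 169 to 206 scaled CPM in controls and 171 to 247 after nPM. For both genes the blood groups overlapped.

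The exposure-by-sex term in blood gave 3 positive and 1 negative lincRNA of 29 at p under 0.05 (5.01% and 5.65% of all genes, 10.7% together), and 1 positive at 0.005 (0.451% of all genes). Leaving out V4 took the 4 down to 1. The 1 at 0.005 was Gm42418 (1.73, SE 0.51, unadjusted p = 0.00309, edgeR adjusted p = 0.452). It stood at 1479.5 and 2444 scaled CPM in control females and 1592, 1052 and 1082 after nPM, and at 1331, 1779 and 1532 in control males and 1770.2, 4083 and 3558 after nPM. The female groups overlapped, and in males 2 of 3 nPM libraries lay above all controls.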

How the data were processed

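The authors depleted ribosomal RNA (RiboZero Gold), mapped the reads with HISAT2 (mm10) and made gene-level counts with featureCounts 1.5.0-p3 from the Gencode M11 annotation. Their deposited table holds raw counts for 48709 genes and 24 libraries. Its gene table also carries the authors' mean RPKM, which was not used. RIN and lane were taken per the labels. The members and gene lists were chosen with earlier results of these data known.

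edgeR's quasi-likelihood F test (edgeR 4.0.16, R 4.3.3; two-sided, TMM, a minimum of 1 count in each library fitted) was run over all genes with RIN as covariate, and p-values were adjusted by Benjamini-Hochberg. Cutoffs were an unadjusted p of 0.005 and 0.05 and an adjusted p of 0.05. Fits of both sexes had sex as a covariate. Blood fits left out V2, whose count distribution stood apart. Scaled CPM used TMM library sizes. The exact permutation test compared group means of 6 against 6 cortices or 6 against 5 blood libraries. Genes named were the 10 most abundant members, those with the smallest p in each comparison, the small RNA hosts, the members nearest the minimum, the extremes of blood over cortex, and well-known lincRNAs. Gene symbols were matched to RefSeq for 84 members. Members of the female fit at p under 0.005, and the 2 chromosome 7 genes so marked, were named after their values were seen. Alternatives were DESeq2 1.42.0, limma voom (limma 3.58.1), RLE, other filters, no RIN, lane, TEC percent, and leaving out each library. Scripts were tested on simulated counts. 1 gene of the lists is not reported here.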

Additional observations from a re-analysis of the deposited data

Results flagged for a closer look

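In blood controls, the share of counts on the 109 lincRNAs was 0.398% in the control female V4, far from the other 4 controls. It was the 1 of 58 groups of libraries examined with a library so far apart, where chance gives about 1 in 20. Gm42418, whose counts are uncertain, was at 3115 CPM in V4. Without Malat1, Gm26917 and Gm42418 the share in V4 was 0.0353%, inside the 0.0348 to 0.0415% of the other controls.

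The exposure-by-sex term had an unadjusted p under 0.005 (edgeR) for Malat1 (0.56), AI480526 (0.72) and A230057D06Rik with the identifier ENSMUSG00000109394 (0.77) in cortex. In blood it did for Gm42418 (1.73). Without the nPM male V23, 0 of the 109 passed 0.005 for the cortex term. None of these terms passed Benjamini-Hochberg adjustment in edgeR with a count required in every library. With a count required in any library, 14 lincRNAs passed for the cortex term and 0 for the blood term, with no share of all genes beside them. In blood, the term of Gm42418 was 1.22 (edgeR unadjusted p = 0.264) with all 12 libraries.

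V2, the control female blood library outside the fits, held Malat1 at 4220 CPM, where the other 11 had 129 to 286, and Neat1 at 415 CPM, where the others had at most 14.5. The 109 lincRNAs took 1.34% of its counts, and 0.100% without Malat1, Gm26917 and Gm42418, where the other 11 had 0.0348 to 0.0512%.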

How the results depend on the processing

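No paired analysis was possible because the labels number replicates within a group only and tie no library to an animal, litter or batch in another group. Counts here are of lincRNAs at an unadjusted p under 0.05 unless stated. Over 678 alternatives for single genes, 591 kept direction and side of the threshold, 77 lost the call, 9 gained it and 1 reversed: Neat1 in blood, −0.39 with all 12 libraries.

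Keeping genes with a count in any library gave 26 members in cortex of both sexes in place of 14, 22 at adjusted p in females in place of 7, 21 in males in place of 8, 18 for sex in place of 7 and 2 in blood in place of 0. At adjusted p it gave 5 in both sexes, 2 in males, 14 for the exposure-by-sex term and 2 for sex, each in place of 0. The lowest adjusted p of a member in females was 1.1e-24 with that filter and 0.00175 in the main fit (edgeR). The share of all genes passing with that filter is not given here. DESeq2 gave 5 in males, and dropping RIN gave 3 in males and 4 for sex. With TEC percent added, both sexes gave 6 higher and 7 lower in place of 2 and 12, the exposure-by-sex term in cortex gave 0 in place of 19, sex gave 3, blood gave 2 and the blood term 1 in place of 4. limma voom gave 1 in blood, and filterByExpr 2 for the blood term. The members' mean share of cortex counts, 0.942%, was 0.537% without Malat1. Leaving Gm26917 and Gm42418 out of the library totals, chosen after seeing the data, left the counts for both sexes and for the exposure-by-sex term at 14 and 19.

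Leaving out each library in turn gave 7 (without V11) to 29 (without V23) in both sexes, with 8 without V12 and 23 without V24. It gave 26 (V11) to 40 in females, and at adjusted p 2 (V11) to 8, with 3 without V10 and 4 without V12, V19 or V20. In males it gave 3 (V24) to 26 (V14), with 4 without V13. The exposure-by-sex term had 10 (V23) to 27, sex 2 (V10) to 25 (V23), blood 0 to 2 (V4, V5 or V6) and the blood term 1 (V4) to 6. The share was 0.926 to 0.956%. The causes were not tested. In blood 29 of 109 members had a count in every library fitted.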
